A study of Mus musculus with 5 samples.

Results

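Forced expression of Myod1 was set directly against forced expression of Pparg in B16F10 cells, a pigmented mouse melanoma line. Both genes were of mouse origin and were delivered by lentivirus, and both cultures were kept in DMEM with serum and collected on day 8. Genes were taken into the comparison when their deposited FPKM (fragments per kilobase of gene length, scaled between libraries by the authors) reached at least 1 in either of the 2 expression libraries. This held for 12011 of the 54699 genes in the table. Gm12248, with a higher value of 1.001 FPKM, was the gene just inside this limit, and Zbtb3, with 0.999, the gene just outside it. Cells that carried the empty expression vector, also collected on day 8, are shown beside as the common start and are called the control library. A further control carried the empty knockdown vector and was collected on day 7, and the last of the 5 libraries came from cells with a knockdown of Setdb1. Each group had 1 library of the whole culture. No difference below therefore has a replicate check, no p-value can be given, and the intervals cover counting error only. In such a bulk sample, fewer cells that express a gene and less RNA per cell cannot be told apart.

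The labels of both libraries were first checked on the genes that were delivered. Myod1 (ENSMUSG00000009471, GRCm38, chromosome 7, 46376474 to 46379099) measured 260.1 FPKM in the Myod1 library, with 0 reads in each of the other 4. Pparg (ENSMUSG00000000440, chromosome 6, 115360951 to 115490399) measured 44.4 FPKM in the Pparg library, likewise with 0 reads elsewhere. Against the limit that 3 reads set in the library at 0, Myod1 was at least 3092-fold higher in the Myod1 library and Pparg at least 687-fold higher in the Pparg library. Whether these reads came from the vector or from the cell's own gene was not tested. The 5 libraries held between 16214802 and 18300670 reads assigned to genes. The share of reads that fell on the 10 most abundant genes was 9.31% in the Myod1 library, 5.72% in the Pparg library and 8.57% in the control library. The deposited FPKM summed to 420545 in the Myod1 library and 297582 in the Pparg library, so the choice of scaling matters below. The total by which the authors divided was 0.859 times the reads assigned to genes in the Myod1 library and 1.10 times in the Pparg library. How reads shared by near-identical genes were counted, and whether strand was used, is not given in the sources used here. Values of families such as the actins, the class I genes and the small RNAs are therefore uncertain.

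Myod1 encodes a basic helix-loop-helix factor that pairs with E proteins, binds E-box sequences and starts the skeletal muscle program, in which myoblasts leave the cell cycle, fuse and build sarcomeres. Pparg encodes a nuclear receptor that pairs with retinoid X receptors, binds direct repeats of a short motif and drives fat cells to take up and store fatty acids. B16F10 cells themselves carry the pigment program of melanocytes, with the melanosome genes kept on by Mitf and Sox10. Interferon-stimulated genes, which were among the markers of this comparison, are switched on by Irf factors and their partners through elements made of repeated GAAA.

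The promoters of 4 genes are printed to show elements that belong to the programs compared, with the E-box CAGCTG in a pair of muscle genes and the repeat of GAAA 2 bases apart in a pair of interferon-stimulated genes. Chrng encodes the fetal gamma subunit of the acetylcholine receptor, and Mylpf the phosphorylatable light chain of fast muscle myosin. Isg15 encodes a ubiquitin-like protein, and Ifit1 a protein that binds viral RNA. Each line gives the 250 bases before the start site, 5′ to 3′ on the strand of the gene, from the RefSeq promoter table of GRCm38.p6, with every match to the motif in capitals. Chrng lies on the plus strand, chr1:87205561-87205810, and Mylpf on the plus strand, chr7:127211358-127211607. Isg15 lies on the minus strand, chr4:156200819-156201068, and Ifit1 on the plus strand, chr19:34640639-34640888, with its matches on the opposite strand to the gene.
Chrng: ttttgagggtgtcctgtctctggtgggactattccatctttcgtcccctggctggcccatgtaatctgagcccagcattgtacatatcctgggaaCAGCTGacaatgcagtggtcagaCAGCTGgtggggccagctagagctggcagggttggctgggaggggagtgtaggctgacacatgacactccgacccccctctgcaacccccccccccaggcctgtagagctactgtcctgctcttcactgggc
Mylpf: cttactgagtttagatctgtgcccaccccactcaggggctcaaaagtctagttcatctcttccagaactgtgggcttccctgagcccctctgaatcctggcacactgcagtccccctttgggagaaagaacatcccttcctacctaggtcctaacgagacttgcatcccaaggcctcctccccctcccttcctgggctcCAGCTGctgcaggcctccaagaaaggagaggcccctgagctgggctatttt
Isg15: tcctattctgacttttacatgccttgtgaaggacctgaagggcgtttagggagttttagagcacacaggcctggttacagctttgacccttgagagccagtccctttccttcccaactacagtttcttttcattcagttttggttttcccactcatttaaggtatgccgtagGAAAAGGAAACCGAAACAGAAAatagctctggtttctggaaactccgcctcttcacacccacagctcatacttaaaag
Ifit1: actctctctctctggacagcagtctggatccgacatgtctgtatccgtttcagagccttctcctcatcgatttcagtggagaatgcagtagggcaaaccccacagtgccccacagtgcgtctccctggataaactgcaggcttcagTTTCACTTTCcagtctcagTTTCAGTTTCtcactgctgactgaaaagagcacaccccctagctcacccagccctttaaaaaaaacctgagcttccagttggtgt
The matches in Chrng began 155 and 132 bases before the start, and that in Mylpf 51 bases before it. Isg15 held 3 overlapping matches that began 78, 72 and 66 bases before the start, and Ifit1 held 2, at 104 and 85 bases.

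Chrng measured 393 FPKM in the Myod1 library and had 0 reads in the Pparg library and both controls, while Mylpf measured 9518 in the Myod1 library, 17.6 in the Pparg library and 7.61 in the control library. Isg15 ran the other way, with 7.66 FPKM in the Myod1 library, 40.1 in the Pparg library and 4.94 in the control library. Ifit1 measured 0.575, 10.9 and 0.691 in the same order. These 4 genes were chosen with their values known. Other named genes do not follow the same pattern: Plin2 and 1 promoter of Mest also held CAGCTG but were higher in the Pparg library, and Myog, Myh3, Actc1 and Myl4 held neither E-box searched in this window.

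Motifs were then searched on both strands in the 300 bases from 250 before to 50 after each start, and the table held entries for 8647 of the 12011 genes compared, with 11107 promoters. CAGCTG was found in 15.4% of these promoters, in 16.3% of all promoters of the table, and in 23.3% of those of genes at least 2-fold higher in the Myod1 library. The share was 37.1% for genes at least 16-fold higher in the Myod1 library and 33.1% for the skeletal muscle lists, against 16.5% for genes at least 2-fold higher in the Pparg library. CACCTG, the other E-box searched, was found in 17.5% of promoters of genes compared, 24.4% of those higher in the Myod1 library and 16.5% of those higher in the Pparg library. The repeat of GAAA 2 bases apart was found in 2.70% of promoters compared, in 7.53% of those higher in the Pparg library and in 46.5% of those of the interferon list, that is, in 20 of 43 promoters. Followed by CT, the same repeat was found in 27.9% of the interferon list and 0.297% of promoters compared. A direct repeat of AGGTCA with 1 base between, the element bound by Pparg with its partner, was found in 0 of the 677 promoters of genes higher in the Pparg library and in 13 of all 32851 promoters. With the repeated motif loosened to AGGNCA it was found in 2 of the 677 (0.295%), beside 0.189% of promoters compared and 0.381% of all promoters. The core element TATAAA was found in 16.2% of the promoters of the muscle lists, 6.82% of those compared, 13.6% of all promoters of the table and 14.1% of those at least 4-fold higher in the Pparg library. A match describes letters in this window and is not a measured site.

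Across the 12011 genes, 2288 (19%) differed at least 2-fold between the 2 libraries on the scale of log2(FPKM + 1), which understates differences of low genes. Of these, 1519 (12.6%) were higher in the Myod1 library and 769 (6.40%) were higher in the Pparg library. Set against each other over the same genes, the 2 controls gave 241 genes (2.01%) past the limit, 145 (1.21%) higher with the expression vector and 96 (0.799%) higher with the knockdown vector. Genes far from equality were mostly on the Myod1 side: at least 4-fold, 483 genes were higher in the Myod1 library and 93 in the Pparg library. At 16-fold the counts were 139 and 5, and at 128-fold 38 and 2. The log2 ratio of Myod1 to Pparg had a median of 0.05 and ran from -7.27 for Fabp4 to 12.99 for Acta1. Its SD over genes was 1.08, against 0.38 between the controls. Reads were absent from the Pparg library for 249 genes (2.07%) that reached 1 FPKM in the Myod1 library, and the reverse held for 74 genes (0.616%).

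**Figure D1:**
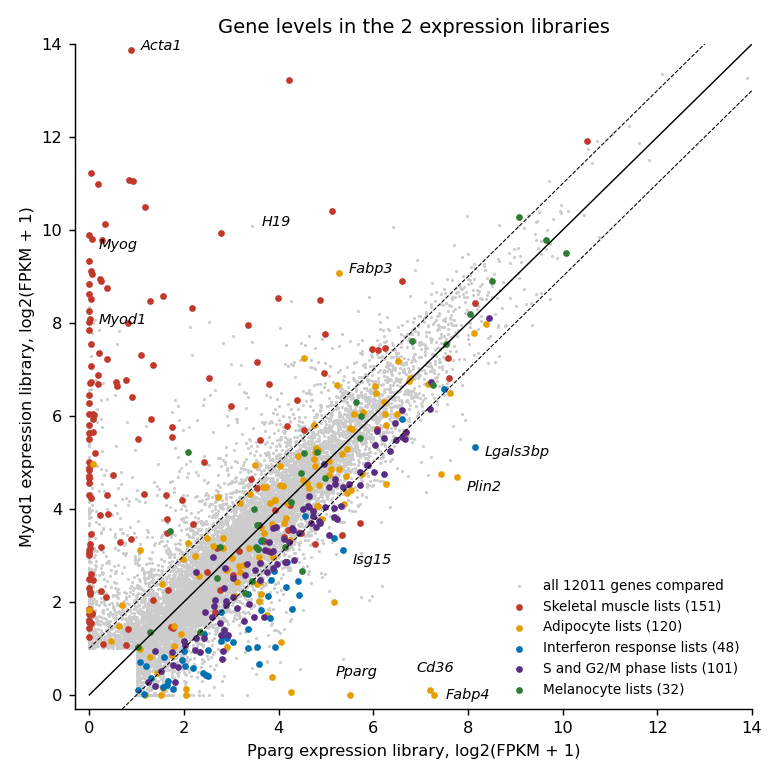
Level of each of the 12011 genes compared, as log2(FPKM + 1), in the Pparg library (x axis) and the Myod1 library (y axis), 1 library each. The solid line marks equal levels and the dashed lines 2-fold. Skeletal muscle genes (red) fill the upper left, up to Acta1, and Fabp4, Cd36 and Pparg lie at the lower edge on the right.

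The split between the sides changed with the scaling. When each library was divided by its FPKM sum, this moved the median of all genes by -0.42 and gave 949 genes higher in the Myod1 library and 1881 higher in the Pparg library, so that 33.5% of the genes past 2-fold were on the Myod1 side in place of 66.4%. Scaling to the reads assigned to genes moved the median by -0.29 and gave 1060 and 1439 genes, or 42.4%, and Cdkn1a, H2-K1, Pmel, Dgat2, Insig1, Atp2a2 and mt-Co1, described below as higher in the Myod1 library, were then within 2-fold. Scaling to the 75th percentile moved the median by -0.19 and gave 1221 and 1162 genes, or 51.2%. With a pseudocount of 0.1 the counts were 1905 and 1276 genes, or 59.9%. Genes nearest to the limit were E330020D12Rik and Gm23628 on the Myod1 side and Txnip and Mcm3 on the Pparg side. Txnip, an arrestin-like protein that responds to glucose, lay just inside with 35.4 FPKM in the Myod1 library and 71.8 in the Pparg library, and Mcm3, a subunit of the replicative helicase, just outside with 43.7 and 88.4.

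**Figure D2:**
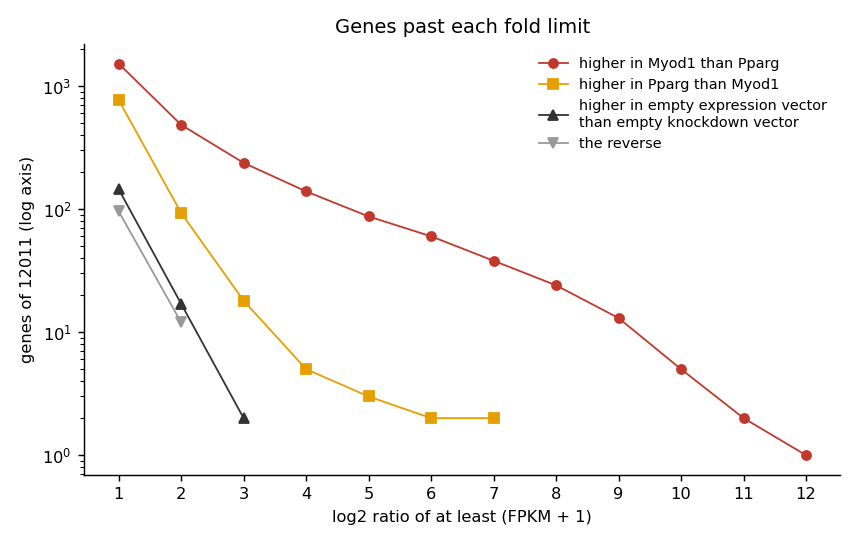
Number of the 12011 genes (y axis, log scale) with a log2 ratio of at least the value on the x axis. Red circles are genes higher in the Myod1 library, orange squares genes higher in the Pparg library, and the triangles compare the 2 control libraries. The red curve lies highest at every limit, from 1519 genes at 2-fold to 1 gene at 4096-fold.

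On the deposited scale, the control library shows from which side a difference came. Both comparisons with it share that 1 library. Of the 1519 genes higher in the Myod1 library, 1257 were at least 2-fold above the control in the Myod1 library, 48 were at least 2-fold below it in the Pparg library, and 219 were 2-fold from it in neither. Of the 769 genes higher in the Pparg library, 274 were at least 2-fold above the control in the Pparg library, 293 were at least 2-fold below it in the Myod1 library, and 212 were 2-fold from it in neither. With a pseudocount of 0.1 the genes 2-fold from the control in neither library numbered 139 on the Myod1 side and 82 on the Pparg side, and the 48 became 110. On this scale, genes on the Myod1 side were thus mostly genes higher in the Myod1 library than in the control. Genes on the Pparg side were divided between genes higher in the Pparg library and genes lower in the Myod1 library than in the control. With the empty knockdown vector library as the control, the same counts were 1220 and 66 on the Myod1 side, and 311 and 273 on the Pparg side. Counts and medians against the control, here and below, were not recomputed with any other scaling. The total by which the authors divided was 0.859 times the assigned reads in the Myod1 library, 0.976 in the control library and 1.10 in the Pparg library. With assigned reads as the scale, ratios to the control are lower for the Myod1 library and higher for the Pparg library. Over all genes compared, 2676 (22.3%) were past 2-fold from the control in the Myod1 library: 1798 (15%) above and 878 (7.31%) below. In the Pparg library 768 (6.39%) were past 2-fold, 542 (4.51%) above and 226 (1.88%) below.

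The gene lists that follow are read against all genes compared, of which 12.6% were higher in the Myod1 library and 6.40% in the Pparg library, with a median log2 ratio of 0.05. A gene with 0 reads in 1 expression library that reached 1 FPKM in the other is past 2-fold by construction. Shares of the members compared are therefore partly set by the filter. Skeletal muscle genes lay mostly on the Myod1 side. Of 188 genes on the muscle lists, 151 were compared, and 123 of these (81.5%) were at least 2-fold higher in the Myod1 library, 3 (1.99%) were higher in the Pparg library and 25 were within 2-fold. Their median log2 ratio was 3.49, or 6.01 with values under 3 reads set to 3 reads and no pseudocount. The 37 other genes reached an FPKM of 1 in neither library, so that 123 of all 188 were at least 2-fold higher in the Myod1 library. Muscle genes took 11.7% of the reads in the Myod1 library, 1.22% in the Pparg library and 1.23% in the control library. In the Pparg library 53 of the 188 genes had 0 reads, in the control library 70, and in the Myod1 library 12.

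Among the regulators, 8 of 13 compared were higher in the Myod1 library and 0 in the Pparg library. The 8 include Myod1 itself, whose side was fixed by the vector. Myog, the factor that acts after Myod1 in differentiating myoblasts, measured 948 FPKM in the Myod1 library and had 0 reads in the Pparg library and both controls. It was at least 9059.5-fold higher in the Myod1 library. Mef2c, a partner of the myogenic factors, measured 10.2 FPKM in the Myod1 library, 2.10 in the Pparg library and 1.81 in the control library, a ratio of 4.86 (95% counting interval 4.46 to 5.32) between the expression libraries. Smyd1, a muscle methyltransferase, had 19393 reads in the Myod1 library, 1 read in the Pparg library and 0 in the control library. Pax3, which acts in both muscle and melanocyte precursors, was the only regulator with a ratio below 0: it measured 10.1 FPKM in the Myod1 library, 21.1 in the Pparg library and 32.7 in the control library, a log2 ratio of -0.99 that was past 2-fold with a pseudocount of 0.1, at -1.05, and with the median centring, at -1.04. Myf5, Myf6 and Pax7 stayed under an FPKM of 1 in both expression libraries.

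Of 16 genes of myoblast fusion and adhesion, 9 were higher in the Myod1 library and 2 in the Pparg library. Both muscle fusogens were among the former: Mymk measured 642 FPKM and Mymx 458 in the Myod1 library, with 0 reads for both in the Pparg library. Cdh15, the cadherin of myoblasts, measured 186 FPKM with 2 reads in the Pparg library. The 2 genes on the other side were Kirrel, a cell adhesion protein, and Ehd2, a membrane-shaping ATPase of caveolae. Kirrel measured 12.0 FPKM in the Myod1 library, 51.4 in the Pparg library and 41.7 in the control library, so the Pparg library was close to the control and the Myod1 library was low. Ehd2 measured 9.89, 39.2 and 8.60, and here the Pparg library stood above the other 2.

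Among genes compared, the sarcomere lists lay almost wholly on the Myod1 side. All 17 thick filament genes compared and 16 of 17 thin filament genes were higher in the Myod1 library, with median log2 ratios of 4.48 and 8.38. The distance between these medians depends on the pseudocount, since they were 8.47 and 10.16 with values under 3 reads set to 3 reads and no pseudocount. Of all genes on the 2 lists, 17 of 23 and 16 of 21 were at least 2-fold higher in the Myod1 library. In the Pparg library 9 of the 23 and 5 of the 21 had 0 reads. Acta1 (chromosome 8, 123891769 to 123894751), the actin of skeletal muscle, measured 14993 FPKM in the Myod1 library, 0.849 in the Pparg library and 0.0797 in the control library, from 362115, 25 and 2 reads. Its ratio between the expression libraries was 17657 (95% counting interval 11961 to 27285). Myh3, the embryonic myosin heavy chain, measured 2044 FPKM in the Myod1 library against 0.138 in the Pparg library and 0.162 in the control library. Other heavy chains were far lower in the Myod1 library, with 7.98 FPKM for Myh8, the perinatal form, and 2.61 for Myh7, the slow form, while the adult fast forms Myh1, Myh2 and Myh4 stayed under 1 in both. Actc1, the cardiac actin that early skeletal muscle also makes, measured 2378 FPKM with 1 read in the Pparg library. The light chains Myl1 and Myl4 measured 2147 and 1119 FPKM in the Myod1 library and 0.780 and 0.259 in the Pparg library. Fast troponin T, Tnnt3, measured 2112 against 0.890, slow troponin I, Tnni1, 874 against 0.203, and fast troponin I, Tnni2, 526 against 0.0348. These troponins of fast and slow fibres were all higher in the Myod1 library.

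Z-disc and scaffold genes were higher in the Myod1 library in 23 of 26 cases and in the Pparg library in 0. Ttn, the giant spring protein, measured 8.44 FPKM in the Myod1 library, 0.00893 in the Pparg library and 0.0141 in the control library. Unc45b, the chaperone that folds myosin, measured 305 FPKM with 0 reads in the Pparg library. Des, the intermediate filament protein desmin, was present in all libraries, at 102, 12.9 and 6.20 FPKM in the Myod1, Pparg and control libraries. Cryab, a small heat shock protein of the Z-disc, was already high in every library, at 346, 281 and 206 FPKM, and stayed within 2-fold.

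Genes of excitation-contraction coupling were higher in the Myod1 library in 19 of 20 cases. The calcium release channel Ryr1 measured 49.1 FPKM in the Myod1 library and 0.0526 in the Pparg library, and its voltage sensor Cacna1s 44.5 FPKM and 0 reads. The calcium pump of fast muscle, Atp2a1, measured 133 FPKM with 2 reads in the Pparg library, whereas Atp2a2, the pump of many cell types, measured 174, 74.5 and 109.9 FPKM in the Myod1, Pparg and control libraries. At the neuromuscular junction 8 of 11 genes were higher in the Myod1 library. The receptor subunits Chrna1 and Chrnd measured 76.3 and 104 FPKM in the Myod1 library with 0 and 1 reads in the Pparg library. Musk, the kinase that gathers the receptors, reached 2.32 FPKM with 0 reads in the Pparg library. Agrn, the protein that activates Musk from outside the cell, was the 1 gene higher in the Pparg library, at 8.45 FPKM in the Myod1 library, 26.1 in the Pparg library and 24.5 in the control library. The dystrophin complex was divided, with 6 of 12 genes higher in the Myod1 library and none past 2-fold on the other side. Sgca, a sarcoglycan of striated muscle, measured 148 FPKM against 0.301, and Dmd itself stayed under 1 in both libraries.

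Muscle energy metabolism was higher in the Myod1 library for 17 of 19 genes. Ckm, the muscle creatine kinase, measured 894 FPKM in the Myod1 library and had 2 reads in the Pparg library and 0 in the control library, a ratio of 24951 (95% counting interval 6907 to 206039). Pygm, which breaks down glycogen, measured 352 FPKM against 1.44 in the Pparg library and 1.62 in the control library, and the muscle glycolytic forms Pgam2 and Eno3 measured 983 against 5.90 and 1348 against 34.0. Mb, the oxygen carrier myoglobin, measured 228 FPKM with 0 reads in the Pparg library. Slc2a4, the insulin-regulated glucose carrier that muscle and fat share, measured 45.5 FPKM in the Myod1 library, 2.34 in the Pparg library and 1.80 in the control library, and so was high on the muscle side. Ckb, the creatine kinase of brain and other tissues, measured 112, 191 and 172 FPKM, within 2-fold.

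**Figure D3:**
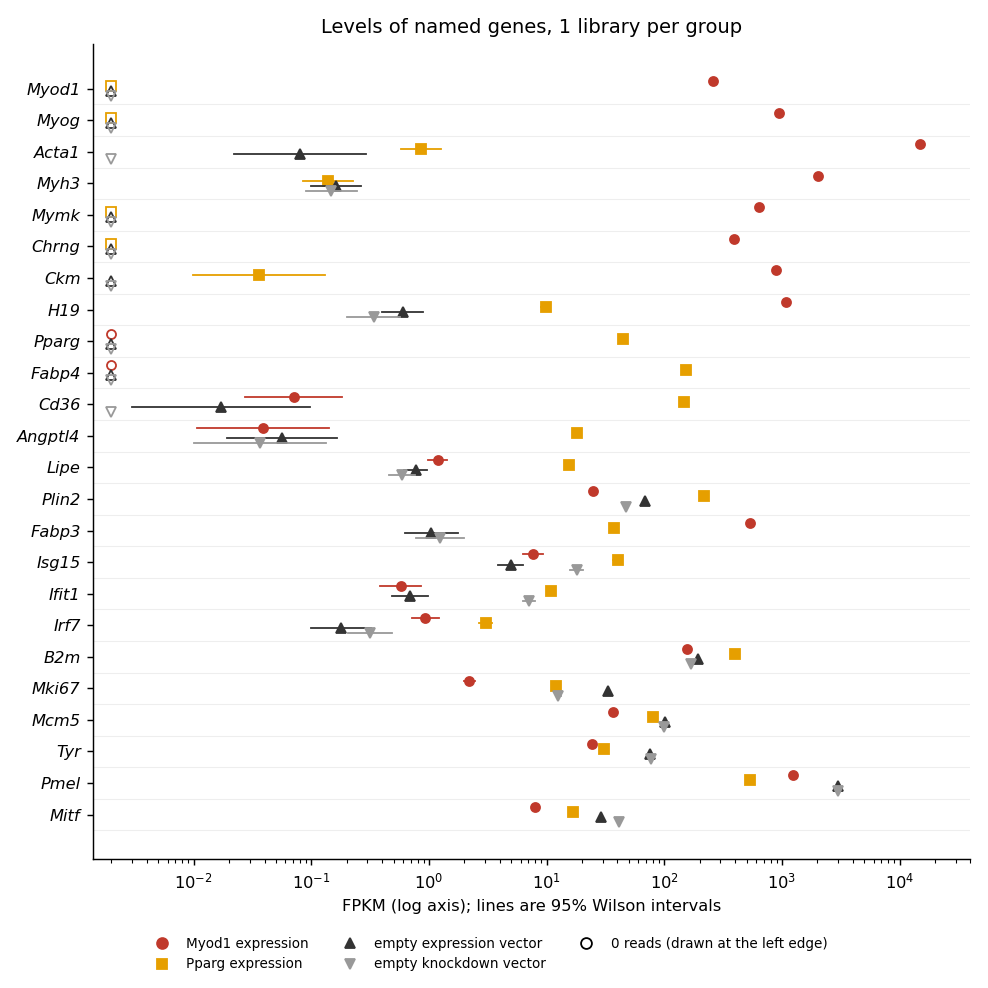
FPKM (log axis) of 24 named genes in the Myod1 (red circle), Pparg (orange square), empty expression vector (black triangle) and empty knockdown vector (grey triangle) libraries, 1 library each. Lines are 95% Wilson intervals and open marks at the left edge stand for 0 reads. Muscle genes stand apart in red, Fabp4, Cd36 and Plin2 in orange, and Tyr and Pmel are lower in both expression libraries than in the controls.

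Imprinted genes, expressed from 1 parental copy, went both ways. Of 11 compared, 5 were higher in the Myod1 library and 2 in the Pparg library. H19 (ENSMUSG00000000031, chromosome 7, 142575529 to 142578143), a noncoding RNA abundant in fetal muscle, measured 1085 FPKM in the Myod1 library, 9.84 in the Pparg library, 0.597 in the control library and 0.340 in the empty knockdown vector library. Both expression libraries stood above both controls, and the Myod1 library stood 110.3-fold (95% counting interval 101 to 121) above the Pparg library. Peg10 and Rtl1, both derived from retrotransposons, measured 175, 33.8 and 14.8 FPKM and 14.3, 0.0164 and 0 FPKM in the Myod1, Pparg and control libraries. Mest, known as a marker of growing fat tissue, measured 3.10, 59.3 and 2.39, and was the sixth gene from the Pparg end of all genes named by rank. Plagl1, a zinc finger factor, measured 15.2, 40.9 and 40.4, so that only the Myod1 library differed from the control. Igf2, Dlk1 and Meg3 stayed under an FPKM of 1 in both libraries.

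Adipocyte genes were divided and differed less than muscle genes. Of 147 genes on the adipocyte lists, 120 were compared, and 28 were at least 2-fold higher in the Pparg library, 11 were higher in the Myod1 library and 81 were within 2-fold. That is 23.3% and 9.17% of the genes compared, beside 6.40% and 12.6% of all genes. The median log2 ratio was -0.20, and became -0.40 with the 75th percentile, -0.52 with the assigned reads and -0.65 with the FPKM sum as the scale. Genes higher in the Pparg library then numbered 33, 37 and 40, and genes higher in the Myod1 library 9, 9 and 6. Defining markers of mature fat cells were near or at 0 in the Pparg library: Adipoq had 2 reads, Cfd 4, Lep and Cebpa 0, and Lpl, the lipase of capillaries in fat, 0. Plin1, the coat protein of large fat droplets, reached 1.25 FPKM with 0 reads in the Myod1 library.

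Among adipogenic regulators, 6 of 22 genes were higher in the Pparg library and 1 in the Myod1 library. The 6 include Pparg itself, whose side was fixed by the vector. Cebpd, an early factor of fat cell formation, measured 2.27 FPKM in the Myod1 library, 12.4 in the Pparg library and 0.768 in the control library. Srebf1, a factor that switches on fatty acid synthesis, measured 22.3, 75.6 and 37.7, with the control between the expression libraries. Cebpb measured 19.2, 42.5 and 19.2 in the same order, and Zfp423, a factor of committed fat precursors, 1.05, 6.56 and 1.14. The partner receptor Rxra was similar in these libraries, at 52.5, 44.2 and 40.6 FPKM. Its ratio of 1.19 (95% counting interval 1.14 to 1.24) holds on the deposited scale and is lower with the assigned reads as the scale. Rxrg reached 2.55 FPKM in the Myod1 library, with 0 reads in the Pparg library and both controls. Ppargc1a, a coactivator of mitochondrial genes, measured 11.3, 11.3 and 13.0 FPKM.

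Fatty acid uptake and binding held the genes with the lowest ratios of the whole comparison. Of 15 genes compared, 4 (26.7%) were higher in the Pparg library, 1 (6.67%) in the Myod1 library and 10 within 2-fold. Ratios were above 0 for 7 and below 0 for 8, with a median of -0.63. With GC content and length trends removed, 3 were higher in the Pparg library and 4 in the Myod1 library. Fabp4 (ENSMUSG00000062515, chromosome 3, 10204088 to 10208576), the fatty acid carrier of fat cells, measured 153 FPKM in the Pparg library from 13207 reads and had 0 reads in the Myod1 library and both controls. It was at least 3611-fold higher in the Pparg library. Cd36, which takes up fatty acids at the membrane, measured 0.0709 FPKM in the Myod1 library, 146 in the Pparg library and 0.0171 in the control library, a ratio of 2063 (95% counting interval 805 to 7572). Fabp3, the fatty acid carrier of heart and muscle, was the 1 member at least 2-fold higher in the Myod1 library on the deposited scale. It measured 536 FPKM in the Myod1 library, 37.6 in the Pparg library, 1.04 in the control library and 1.24 in the empty knockdown vector library. Both expression libraries thus stood far above both controls, and the Myod1 library stood 14.3-fold (95% counting interval 13.1 to 15.5) above the Pparg library. On the deposited scale Gpd1, which makes the glycerol backbone of fat, was above the control in both by nearly the same amount, at 77.2, 74.1 and 19.6 FPKM. Its ratio between the expression libraries was 1.04 (95% counting interval 0.996 to 1.09), which does not cover the scaling. The ratio is lower with the assigned reads as the scale.

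Lipid droplet and triglyceride genes were higher in the Pparg library in 6 of 21 cases and in the Myod1 library in 3. Plin2, the droplet coat protein of many cell types, measured 24.6 FPKM in the Myod1 library, 218 in the Pparg library and 69.1 in the control library, so the control lay between. Lipe, the hormone-sensitive lipase, measured 1.19, 15.6 and 0.770, and Mogat1, which makes diglycerides, 2.98, 35.0 and 4.24. The 3 genes on the Myod1 side were Fitm1, a droplet protein of skeletal muscle, at 30.3 FPKM with 1 read in the Pparg library, Mgll, the monoglyceride lipase, at 151 against 22.1, and Dgat2, which closes triglyceride synthesis, at 8.56 against 3.22. Droplet genes above the control in both libraries included Fitm2, at 29.3, 26.3 and 8.46 FPKM, and Dgat1, at 38.2, 42.5 and 17.5.

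Of 7 secreted factors, 4 were higher in the Pparg library. Angptl4, which inhibits lipoprotein lipase, measured 0.0387 FPKM in the Myod1 library, 18.2 in the Pparg library and 0.0559 in the control library, from 2, 1146 and 3 reads, a ratio of 470.0 (95% counting interval 129.8 to 3886) between the expression libraries. Agt, the precursor of angiotensin, measured 26.0, 171 and 21.6. In the Myod1 library both genes stayed within 2-fold of the control. Fgf21, a metabolic hormone, was the exception, at 7.69 FPKM in the Myod1 library and 1.10 in the Pparg library with 0 reads in both controls.

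Genes of fatty acid oxidation lay toward the Pparg side by an amount that depended on the scaling. Of 26 genes, 3 were at least 2-fold higher in the Pparg library and 0 in the Myod1 library, with a median log2 ratio of -0.29. The median became -0.50 with the 75th percentile, -0.62 with the assigned reads and -0.77 with the FPKM sum as the scale, and 5, 8 and 8 genes were then higher in the Pparg library. Against the control, on the deposited scale, the list's median was 0.52 in the Myod1 library and 0.86 in the Pparg library, where 9 and 12 genes were at least 2-fold higher. Acadm, an acyl-CoA dehydrogenase, measured 22.5, 23.4 and 9.84 FPKM in the Myod1, Pparg and control libraries, and Acadvl, which acts on very long chains, 99.2, 64.6 and 22.2. Fatty acid and sterol synthesis split evenly, with 5 of 29 genes on either side and a median of 0.28 that became -0.05 when scaled to the assigned reads and -0.19 when libraries were divided by their FPKM sum. The 5 on the Pparg side were the desaturases Fads1 and Fads2, the elongase Elovl5, Me1, which supplies reducing power, and Thrsp. The 5 on the Myod1 side were Acacb, the sterol enzymes Fdft1 and Fdps, and the sterol regulators Insig1 and Srebf2. Insig1, with a log2 ratio of 1.05, was within 2-fold with the assigned reads and the 75th percentile as the scale, with the median centring and with GC content and length trends removed. With the FPKM sum as the scale, 1 gene, Acacb, was still past 2-fold on the Myod1 side. Fads1 measured 20.1, 45.3 and 74.6 FPKM in the Myod1, Pparg and control libraries, so both expression libraries were below the control. Srebf2 measured 99.9, 36.5 and 63.8, with the control between them.

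Interferon-stimulated genes were lower in the Myod1 library in every case compared. All 48 had a log2 ratio below 0, and 37 (77.1%, beside 6.40% of all genes) were at least 2-fold higher in the Pparg library, with a median of -1.55, or -2.30 with values under 3 reads set to 3 reads and no pseudocount. Against the control the median was -0.17 in the Myod1 library and 1.39 in the Pparg library, so that 32 genes were at least 2-fold above the control in the Pparg library and 3 in the Myod1 library. The signalling factor Irf9 measured 2.43 FPKM in the Myod1 library, 5.86 in the Pparg library, 2.45 in the control library and 3.21 in the empty knockdown vector library, and Irf7, which amplifies the response, 0.926, 3.03, 0.178 and 0.317. For both factors the Pparg library was the highest of the 4.

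The controls themselves differed for part of this list. Isg15 measured 7.66 FPKM in the Myod1 library, 40.1 in the Pparg library, 4.94 in the empty expression vector library and 18.0 in the empty knockdown vector library, a ratio of 5.24 (95% counting interval 4.19 to 6.61) between the expression libraries. Ifit1 measured 0.575, 10.9, 0.691 and 7.07, and the chemokine Ccl5 3.97, 16.8, 1.59 and 12.4. In all, 7 of the 48 genes differed at least 2-fold between the controls. Lentivirus was used in every library, and its part in the levels of these genes was not tested. The RNA sensor Ddx58 measured 3.44, 20.6, 4.85 and 6.56, and Lgals3bp, a secreted glycoprotein, 39.3, 281, 73.1 and 68.8, with the controls close to each other. Ifnb1, the gene of interferon beta, stayed under an FPKM of 1 in both expression libraries.

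Genes of class I antigen presentation were higher in the Pparg library for 9 of 14 members (64.3%), with 1 on the other side and a median of -1.08. B2m, the invariant chain of class I molecules, measured 154 FPKM in the Myod1 library, 400.4 in the Pparg library and 194 in the control library, and the peptide carrier Tap2 0.791, 4.62 and 0.421. Tapbp, which loads peptides, measured 18.0, 56.4 and 13.2. H2-K1, a class I heavy chain, was the exception, at 92.3 FPKM in the Myod1 library, 41.2 in the Pparg library, 23.9 in the control library and 6.33 in the empty knockdown vector library. H2-D1, its near neighbour in sequence, measured 62.9, 119, 55.7 and 43.6.

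Cell cycle genes were also higher in the Pparg library, but here the Pparg library was close to the control. Of 101 genes of S phase and of G2 and M phase, 43 (42.6%, beside 6.40% of all genes) were at least 2-fold higher in the Pparg library and 0 in the Myod1 library, with a median log2 ratio of -0.94 and 97 of 101 ratios below 0. Against the control the median was -1.18 in the Myod1 library and -0.23 in the Pparg library, with 62 genes at least 2-fold below the control in the Myod1 library and 1 in the Pparg library. Scaling to the assigned reads gave 72, and dividing by the FPKM sum 83, of 101 genes at least 2-fold higher in the Pparg library. Mcm5, a subunit of the replicative helicase, measured 36.7 FPKM in the Myod1 library, 80.3 in the Pparg library, 102 in the control library and 98.5 in the empty knockdown vector library. Top2a, which untangles chromosomes, measured 9.81, 32.6, 62.6 and 42.1. For Mki67, the antigen Ki-67, the values were 2.21, 11.9, 33.5 and 12.6, so the controls differed from each other and the Myod1 library was below both. Cdk1, the kinase of mitosis, differed less, at 22.4, 35.4, 41.8 and 53.3.

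Of 17 genes of cell-cycle exit, 3 were higher in the Myod1 library and 2 in the Pparg library. Cdkn1a, the kinase inhibitor p21 that Myod1 is known to induce, measured 425 FPKM in the Myod1 library, 179 in the Pparg library and 119 in the control library, a ratio of 2.38 (95% counting interval 2.33 to 2.43). Rb1, the retinoblastoma protein, measured 8.19, 8.20, 2.37 and 2.75 FPKM in the Myod1, Pparg, control and empty knockdown vector libraries. The 95% counting interval on its ratio between the expression libraries was 0.909 to 1.10. This interval does not cover the scaling, and the ratio is lower with the assigned reads as the scale. The antiproliferative gene Btg2 measured 32.9, 18.4, 1.54 and 2.88. Both genes stood above both controls in both expression libraries. Cyclin D2, Ccnd2, measured 33.4, 72.6, 73.6 and 65.3, low in the Myod1 library.

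On the deposited scale, melanocyte genes past 2-fold between the expression libraries were about as frequent as among all genes. Of 32 genes compared, 3 (9.38%, beside 12.6% of all genes) were higher in the Myod1 library and 2 (6.25%, beside 6.40%) in the Pparg library, and the median log2 ratio of 0.04 became -0.01 when centred on the median of all genes, -0.10 with the 75th percentile, -0.21 with the assigned reads and -0.36 with the FPKM sum. The 2 genes higher in the Pparg library became 5 with median centring, a pseudocount of 0.1, the 75th percentile or the assigned reads, and 7 with the FPKM sum. Of all genes, 866, 1276, 1162, 1439 and 1881 were then on that side, in place of 769. Against the control the median was -0.89 in the Myod1 library and -0.86 in the Pparg library, with 13 and 15 genes at least 2-fold below the control. Pigment genes took 1.21% of the reads in the Myod1 library, 1.54% in the Pparg library and 4.01% in the control library. Tyr, the rate-limiting enzyme of melanin synthesis, measured 24.5 FPKM in the Myod1 library, 30.6 in the Pparg library, 76.2 in the control library and 76.9 in the empty knockdown vector library. Dct, a later enzyme of the same path, measured 292, 261, 1067 and 835, and Tyrp1 877, 802, 2172 and 2885. These 3 enzymes kept the same order of expression libraries below controls.

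Several melanocyte genes did separate the libraries. Pmel, the fibre protein of melanosomes, measured 1248 FPKM in the Myod1 library, 536 in the Pparg library and 3014 in the control library, a ratio of 2.33 (95% counting interval 2.29 to 2.37). Oca2, a melanosome channel, measured 10.6, 2.24 and 7.80. On the other side was Bcan, a proteoglycan, with 5.30, 21.4 and 3.66. The master regulator Mitf measured 8.03 FPKM in the Myod1 library, 16.7 in the Pparg library, 28.7 in the control library and 41.6 in the empty knockdown vector library, with a log2 ratio of -0.97 that fell just short of the limit. The ratio was past the limit with a pseudocount of 0.1, at -1.05, with the median centring, at -1.02, and with the assigned reads as the scale, at -1.29. Sox10, which acts above Mitf, measured 185 and 185 FPKM in the Myod1 and Pparg libraries against 278 in the control library. The 95% counting interval on its ratio between the expression libraries was 0.973 to 1.03. This interval does not cover the scaling, and the ratio is lower with the assigned reads as the scale.

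Respiratory chain genes lay toward the Myod1 library, by small amounts. Of 47 nuclear-encoded genes, 17 (36.2%, beside 12.6% of all genes) were at least 2-fold higher in the Myod1 library and 0 in the Pparg library, with a median log2 ratio of 0.90, and 46 of 47 ratios were above 0. Scaling to the assigned reads left 5 genes past 2-fold and a median of 0.55, and dividing by the FPKM sum 2 genes and 0.40. Against the control the median was 1.38 in the Myod1 library and 0.44 in the Pparg library. Ndufa6, a subunit of complex I, measured 90.2, 24.0 and 20.5 FPKM in the Myod1, Pparg and control libraries, and Cox7b, a subunit of complex IV, 229.8, 80.1 and 65.6. Of the 13 subunits encoded in mitochondrial DNA, 7 (53.8%) were higher in the Myod1 library and 0 in the Pparg library, with a median of 1.03, or 0.68 and 2 genes with the assigned reads and 0.53 and 1 gene with the FPKM sum. Against the control the median of these 13 was 0.54 in the Myod1 library and -0.70 in the Pparg library. In the Pparg library 3 were at least 2-fold below the control and 1 above it, and in the Myod1 library 1 and 1. Between the controls 2 differed at least 2-fold. mt-Co1, the catalytic subunit of complex IV, measured 10500.2 FPKM in the Myod1 library, 4387 in the Pparg library and 6170.0 in the control library. mt-Co3 broke the pattern, at 264, 309 and 28.5 FPKM.

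**Figure D4:**
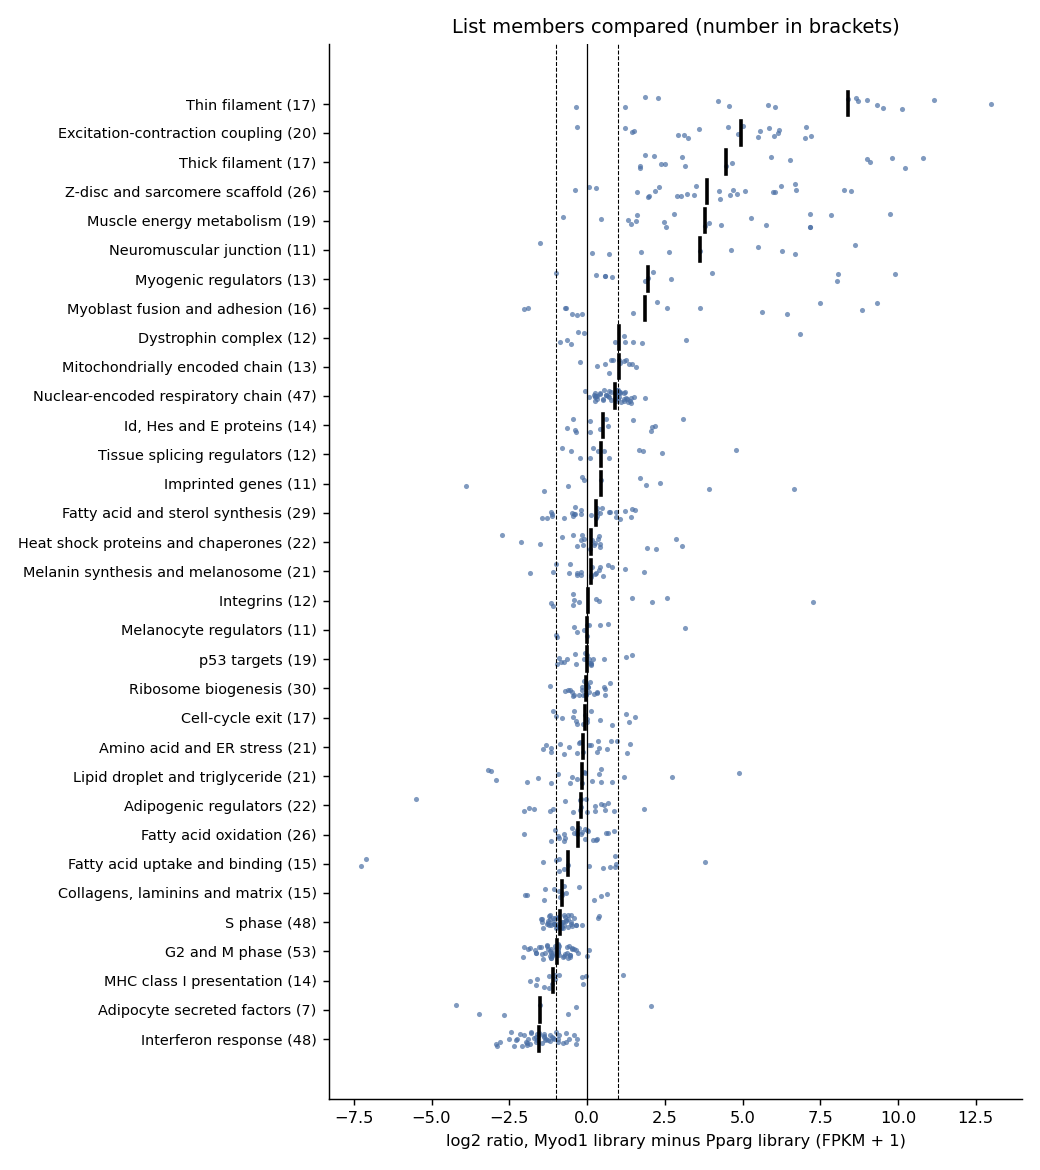
Log2 ratio of the Myod1 library to the Pparg library (x axis, FPKM + 1) for each list member compared (points, spread vertically for legibility), with the list median as a black bar and 2-fold as dashed lines. Muscle lists lie to the right, with the thin filament highest at a median of 8.38, and the interferon list lies to the left of 0 in all 48 members.

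Regulators that act with or against Myod1 were partly shared. Of 14 Id, Hes, Notch and E protein genes, 5 were higher in the Myod1 library and 0 in the Pparg library. Id1, an inhibitor that takes E proteins away from Myod1, measured 14.9 FPKM in the Myod1 library, 2.83 in the Pparg library and 0.792 in the control library, and Id3 55.5, 34.7 and 2.15. Both inhibitors were thus above the control in both libraries. Hes6, which promotes muscle differentiation, measured 188, 21.3 and 14.3, and the E protein Tcf12 10.1, 9.46 and 17.5. Of 12 tissue splicing regulators 4 were higher in the Myod1 library, among them Srpk3, a muscle kinase of splicing factors, at 40.0 FPKM against 0.487, and Rbfox1, at 2.51 FPKM with 0 reads in the Pparg library and both controls.

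Of 32 collagens, laminins and related matrix genes, 15 were compared. Of these, 5 (33.3%) were higher in the Pparg library, 0 in the Myod1 library and 10 within 2-fold, with 3 ratios above 0 and a median log2 ratio of -0.82. With the assigned reads or the FPKM sum as the scale 10 of the 15 were higher in the Pparg library. Against the control the median was -1.07 in the Myod1 library and 0.21 in the Pparg library. Sparc, a matrix protein that binds collagen, measured 247, 649 and 299 FPKM in the Myod1, Pparg and control libraries, and Col4a1, a chain of basement membrane collagen, 0.912, 6.55 and 3.14. Integrins had no common direction, with 4 of 12 (33.3%) higher in the Myod1 library, 2 (16.7%) in the Pparg library, and a median of 0.02 that was below 0 in 9 of 13 alternatives of pseudocount, filter and scaling and ranged over them from -0.35 to 0.22. Itga7, the laminin receptor of muscle, measured 31.0 FPKM in the Myod1 library, 4.38 in the Pparg library, 0.280 in the control library and 0.133 in the empty knockdown vector library, and so was above both controls in both expression libraries. Itgb1bp2, the muscle protein melusin, measured 156 FPKM with 1 read in the Pparg library.

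Heat shock proteins and chaperones had no common direction, with 4 of 22 members (18.2%) higher in the Myod1 library and 3 (13.6%) in the Pparg library. Hspb8 and Hspb3, both made in muscle, measured 138 and 7.33 FPKM in the Myod1 library and 18.1 and 0 in the Pparg library. Hspb6 measured 19.7, 138 and 21.2 FPKM in the Myod1, Pparg and control libraries, and the inducible chaperone Hsp90aa1 33.6, 149 and 233. Ribosome biogenesis had 1 of 30 genes (3.33%) past 2-fold, Ncl, at 14.5 against 34.3 FPKM. Of 19 p53 targets 2 (10.5%) were higher in the Myod1 library, Cdkn1a and Sesn1, and 0 in the Pparg library, but 1 and 4 with the assigned reads and 0 and 5 with the FPKM sum as the scale. Of 21 genes of amino acid and endoplasmic reticulum stress, 2 (9.52%) were higher in the Myod1 library and 4 (19.05%) in the Pparg library, in a list of which 6 differed at least 2-fold between the controls. Xbp1, a factor that enlarges the endoplasmic reticulum, measured 68.5, 25.6, 41.5 and 36.6 FPKM in the Myod1, Pparg, control and empty knockdown vector libraries. Ddit3, a factor of prolonged stress, measured 18.7, 42.8, 58.9 and 19.4.

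**Figure D5:**
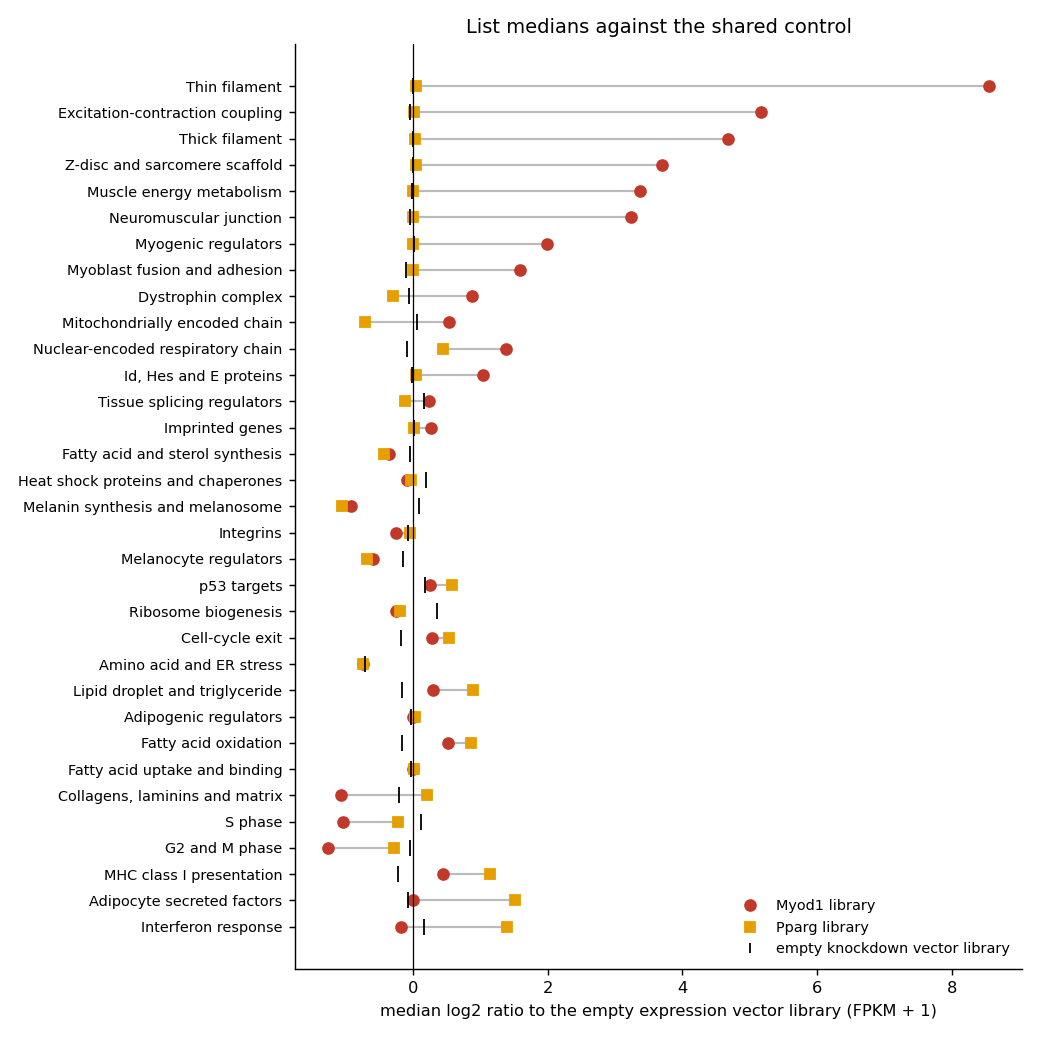
Median log2 ratio of each list to the empty expression vector library (x axis, FPKM + 1) for the Myod1 library (red circle), the Pparg library (orange square) and the empty knockdown vector library (black tick), 1 library each. For the muscle lists other than the dystrophin complex the orange square sits near 0. For the cell cycle lists the red circle sits lower, and for the melanosome list both lie near -1.

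Markers of most other cell types were low in both expression libraries. Of 16 immune markers 2 were compared, and the summed level of all 16 was 6.53 FPKM in the Myod1 library, 2.67 in the Pparg library and 13.7 in the control library, with 10, 12 and 9 markers at 0. The general immune marker Ptprc stayed under 1 in both. Of 8 endothelial markers 0 reached an FPKM of 1. Of 8 fibroblast markers 2 were compared, with a summed level over all 8 of 2.82 FPKM in the Myod1 library, 5.70 in the Pparg library and 11.5 in the control library. Smooth muscle and cardiac lists share genes with skeletal muscle: all 4 smooth muscle markers compared were higher in the Myod1 library, such as Acta2 at 267 FPKM with 3 reads in the Pparg library, but Myh11 and Myocd stayed under 1. Gata4, a factor of heart and gut, reached 3.21 FPKM in the Myod1 library with 0 reads in the Pparg library and both controls, while Nkx2-5 and Tbx5 stayed under 1. Of the brown fat markers, Ucp1 and Cidea stayed under 1, and the list summed to 20.2 FPKM in the Myod1 library, 21.03 in the Pparg library and 38.0 in the control library. The neuron list summed to 137, 83.5 and 202 FPKM, nearly all from Tubb3, a tubulin that measured 136, 82.8 and 202. The cartilage and bone list summed to 2.77, 3.34 and 5.03 FPKM.

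Genes on none of the lists were also named by rank. On the Myod1 side these included Hfe2, which encodes hemojuvelin, an iron regulator made in muscle and liver, at 255 FPKM with 2 reads in the Pparg library, and Trim72, which takes part in membrane repair of muscle, at 220.2 FPKM with 2 reads. Fndc5, the precursor of irisin, measured 187 FPKM in the Myod1 library and 0.491 in the Pparg library, and Nmrk2, a muscle kinase of nicotinamide riboside, 226 and 0.535. Also named were Fbxl22 at 109 against 0.106, the processed pseudogene Mylf-ps at 326 FPKM and the small nucleolar RNA Gm25436 at 93.0, the last 2 with 0 reads in the Pparg library.

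On the Pparg side the first unlisted gene was Ccdc80, a secreted protein made in fat tissue, at 0.711 FPKM in the Myod1 library, 40.0 in the Pparg library and 3.62 in the control library, a ratio of 56.3 (95% counting interval 42.4 to 76.5). Cp, the copper-binding ferroxidase ceruloplasmin, measured 3.35, 61.6 and 5.84 in the same order. A pair of glutathione transferases followed, Mgst1 at 4.04, 71.2 and 5.87 FPKM and Gstt1 at 0.624, 15.3 and 0.801. Cbr2, a carbonyl reductase, measured 0.479, 20.8 and 0.784, and Sncg, gamma-synuclein, 3.28, 52.2 and 1.65. Prelp, a matrix proteoglycan, measured 0.369, 10.4 and 1.30, and Dmrtc2, a factor of the germ line, 0, 9.12 and 0.0756. All 8 were higher in the Pparg library than in the control.

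The noncoding classes and unannotated loci given here were past 2-fold more often than all genes, of which 19% were, with more on the Myod1 side. Of 190 lincRNA genes compared, 68 were higher in the Myod1 library and 13 in the Pparg library (42.6% past 2-fold), and of 143 antisense genes 39 and 9 (33.6%). Over all genes 12.6% were higher in the Myod1 library and 6.40% in the Pparg library. Small RNA classes were past 2-fold most often, with 24 and 12 of 48 snoRNA genes (75%), 10 and 4 of 20 snRNA genes (70%) and 22 and 14 of 53 miRNA genes (67.9%). Of 126 loci outside the annotation, 47 were higher in the Myod1 library and 13 in the Pparg library (47.6% past 2-fold). Of 10527 protein-coding genes, 1137 were higher in the Myod1 library and 667 in the Pparg library (17.1% past 2-fold).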

How the data were processed

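RNA from 5 cultures of B16F10 cells was sequenced, 1 library per group, and the report uses mainly the 2 expression libraries and the empty expression vector library. The values analysed are FPKM per gene as deposited by the authors in 1 table of 54699 genes. The submitters' processing notes name CASAVA, HISAT2, featureCounts 1.5.0-p3 and GRCm38, without their roles. How the values were scaled between libraries, whether strand was counted and how reads shared by several genes were treated are not given in the sources used here. In each column, 100% of the values were whole multiples, within 0.01, of what 1 read is worth at the gene's length. The total that 1 read was scaled by differed from the reads assigned to genes, at 0.859 times these in the Myod1 library and 1.10 times in the Pparg library, so that ratios of Myod1 to Pparg are higher than with assigned reads as the scale. The recovered reads gave the depth of the libraries, 95% Wilson intervals on FPKM, exact 95% intervals on ratios and the limit of 3 reads where a library was at 0. Reads are not independent molecules, so intervals cover counting error only.

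Ratios were differences of log2(FPKM + 1), Myod1 minus Pparg, over genes that reached 1 FPKM in either library, and a gene was counted as higher at 2-fold. With 1 library per group no test was possible. Lists are described by counts and, for most, medians, to be read beside those of all genes. The 12011 genes and the 41 gene lists were chosen with earlier results of these data known, and no pattern is given as independent support. Named genes were the delivered genes, H19, Isg15, list members, the 15 highest and 15 lowest ratios among genes past 2-fold with at least 30 reads in the higher library, the 8 highest and lowest of these on no list, those nearest to each limit, and up to 6 on either side with the control 2-fold from both libraries in opposite directions. Gene positions were set beside GENCODE M21, where 98.3% of the 54495 shared identifiers had the same position. GC content and length came from M21 as well. Promoters came from the RefSeq table of GRCm38.p6. Alternatives changed the pseudocount, filter, limit and scaling, removed trends with GC content and length, or replaced the control. The calculations were tested on simulated data. Python 3.11.15 was used with numpy 2.4.6, pandas 2.3.3, scipy 1.17.1 and matplotlib 3.10.9. The knockdown library enters no comparison between groups and is used only for reads of genes at or near 0. Some genes that meet the naming rule are not reported here.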

Additional observations from a re-analysis of the deposited data

Results flagged for a closer look

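In 5 genes higher in the Myod1 library and 10 genes higher in the Pparg library, the expression libraries lay on opposite sides of the empty expression vector library, each at least 2-fold from it. Both differences are taken from the same control library and each side is 1 library, so the difference between them was not tested. With a pseudocount of 0.1 there were 47 and 67 such genes. Values are log2 ratios of FPKM + 1 to the control. Of the 5 genes with the Myod1 library above the control, Adssl1, a muscle enzyme of adenine nucleotide synthesis, was at 3.76 in the Myod1 library and -2.02 in the Pparg library. Tead4, a factor of muscle gene promoters, was at 2.34 and -1.67, and Rapsn, which clusters acetylcholine receptors, at 2.12 and -1.51. Sap30, a subunit of a histone deacetylase complex, was at 1.69 and -1.49, and the receptor Erbb3 at 1.63 and -1.51. In FPKM, Adssl1 measured 238 in the Myod1 library, 3.37 in the Pparg library and 16.7 in the control library, and Erbb3 36.6, 3.27 and 11.1.

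Of the genes with the Pparg library above the control, Ccdc80 was at -1.43 in the Myod1 library and 3.15 in the Pparg library, and the droplet coat gene Plin2 at -1.46 and 1.64. Pde1b, a phosphodiesterase, was at -1.56 and 1.502, and Masp1, a protease of the complement system, at -1.26 and 1.56. Cyp26b1, which breaks down retinoic acid, was at -1.56 and 1.18, and Pltp, a lipid transfer protein, at -1.14 and 1.55. These 6 are the genes with the lowest ratios of 10 such genes on the Pparg side.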

How the results depend on the processing

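Results were recomputed under 13 alternatives of the comparison. They concerned the pseudocount, filter, limit and scaling, and the limit of at least 30 reads in the higher library and the scaling to assigned reads were chosen after seeing the data. Counts of genes by their place relative to the control were recomputed only with a pseudocount of 0.1 and with the empty knockdown vector library as the control. No paired analysis was possible because each group had 1 library. For the 729 named genes compared, 9441 values were recomputed. Of these, 7056 stayed within the counting interval of the value reported and 2385 fell outside it. Alternatives that change only the filter or the limit leave the ratio of a gene unchanged, so part of the 7056 was fixed in advance. Among genes past 2-fold, 0 values changed sign. The scaling that moved the median of all genes most, the FPKM sum, moved it by -0.42, so few such changes were possible. Of 37 list medians, 29 kept their sign in every scaling. Muscle genes higher in the Myod1 library, 123 as reported, numbered between 100 and 126.

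Of the main counts recomputed, those that moved by over 1.5 times were these. With the 4-fold limit, 483 genes were higher in the Myod1 library and 93 in the Pparg library, with 11 adipocyte genes, 11 interferon genes and 2 cell cycle genes higher in the Pparg library, 1 melanocyte gene in the Myod1 library and 0 in the Pparg library, and 0 genes of either respiratory chain list. With the FPKM sum as the scale, the totals were 949 and 1881, with 83 cell cycle and 7 melanocyte genes higher in the Pparg library and 2 nuclear and 1 mitochondrial chain genes in the Myod1 library. With the assigned reads as the scale, 1439 genes in all, 72 cell cycle and 5 melanocyte genes were higher in the Pparg library, and 5 nuclear and 2 mitochondrial chain genes in the Myod1 library. With the 75th percentile, 1162 genes in all and 5 melanocyte genes were higher in the Pparg library, and 9 nuclear and 4 mitochondrial chain genes in the Myod1 library. With a pseudocount of 0.1, 1276 genes and 5 melanocyte genes were higher in the Pparg library, and 110 of the genes higher in the Myod1 library were at least 2-fold below the control in the Pparg library. Genes 2-fold from the control in neither library then numbered 139 on the Myod1 side and 82 on the Pparg side, and genes with the libraries on opposite sides of it 47 and 67. With low values set to 3 reads, 1291 genes and 5 melanocyte genes were higher in the Pparg library. Centring on the median gave 5 melanocyte genes, and removing trends with GC content and length 4 mitochondrial chain genes. The stricter GAAA motif was found in 27.9% of the interferon promoters. These shifts follow from the change of setting itself. Which setting lies nearest to the true levels was not tested. Depth limits the low genes: 3 reads are the smallest level a library at 0 allows.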

Other observations

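Some muscle genes had a few reads in libraries other than that of Myod1. Of the 44 muscle genes at least 2-fold higher in the Myod1 library with 0 reads in the empty expression vector library, 16 had reads in the Pparg library, 7 in the empty knockdown vector library and 12 in the Setdb1 knockdown library. These summed to 83, 10 and 49 reads, against 365735 in the Myod1 library. In the Pparg library the gene with the most was Myl1, with 31 reads, and 4 genes had over 3. Of the 3 adipocyte genes chosen in the same way from the Pparg library, which include Pparg itself, 0 had reads in the Myod1 library or the empty knockdown vector library. Whether these reads came from the cells or from carry-over between libraries was not tested.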
